A study of Homo sapiens with 9 samples.

Results

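The genes of this report are 55 nuclear genes that encode subunits of the mitochondrial respiratory chain, out of 47753 gene names measured. They were chosen from a written list of complex I, complex II, complex III and complex IV subunits, to which NDUFA4L2 and COX4I2 were joined. The rule for membership used no measured value, but the list was written with earlier results of these data known. The list holds 31 genes of complex I, 4 of complex II, 7 of complex III and 13 of complex IV. All 55 were found on the arrays through their RefSeq accessions, and all 55 were well above background on 9 of 9 arrays, with none saturated.

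RNA came from OEC-M1, an established human head and neck squamous cell carcinoma (HNSCC) line grown in RPMI with 10% serum. Every culture was kept at 1% O2 for 18 h and harvested 72 h after transfection with a non-targeting siRNA (siControl), a GATA3 siRNA (siGATA3, here GATA3 knockdown) or a HIF1A siRNA (siHIF1A, here HIF-1α knockdown). There were 3 Agilent 1-dye arrays per group and none from normoxic cells, so the response to hypoxia itself was not measured. The arrays used 1 siRNA per target, so on them an effect of the siRNA and an effect of its target cannot be told apart. The paper used another siRNA per target as well in other assays, among them real-time RT-PCR of selected genes.

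The respiratory chain passes electrons from NADH (complex I) and succinate (complex II) through complex III to complex IV, which reduces oxygen to water, and the energy released is stored as a proton gradient. Most of its subunits are encoded in the nucleus and imported. In hypoxic cells HIF-1 is known to induce a few genes that lower respiration or fit it to low oxygen, among them NDUFA4L2, a paralogue of the complex IV subunit NDUFA4, and COX4I2, which can take the place of COX4I1 in complex IV. The comparisons address whether the subunit genes differed in GATA3 or HIF-1α knockdown cells under hypoxia.

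The promoter letters of 5 members are shown because they hold the pair NDUFA4L2 and NDUFA4, the COX4I1 gene whose partner is hypoxia-linked, and the complex I genes NDUFS8 and NDUFS6, which passed the test below. Each line is the 250 bases before the start of the gene, 5′ to 3′ on the strand of the gene, from RefSeq on GRCh38.p14, and capitals mark any of the motifs searched. The core of the hypoxia response element was searched as ACGTG. It was also searched in its other known form, GCGTG. GATA factors were represented by the letters GATAA and NRF1 by GCGCATGC. The ETS factor GABP was represented by CCGGAAG. The core of YY1 was ATGGCGG, and every motif was searched on both strands. NDUFA4L2 lies at chr12:57240763-57241012 on the minus strand, NDUFA4 at chr7:10940154-10940403 on the minus strand, COX4I1 at chr16:85799445-85799694 on the plus strand, NDUFS8 at chr11:68030431-68030680 on the plus strand and NDUFS6 at chr5:1801157-1801406 on the plus strand.
NDUFA4L2: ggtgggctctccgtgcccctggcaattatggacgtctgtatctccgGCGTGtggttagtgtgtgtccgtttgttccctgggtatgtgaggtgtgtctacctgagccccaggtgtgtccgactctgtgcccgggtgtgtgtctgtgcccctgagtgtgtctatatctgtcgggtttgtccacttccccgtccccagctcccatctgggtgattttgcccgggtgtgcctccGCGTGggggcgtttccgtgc
NDUFA4: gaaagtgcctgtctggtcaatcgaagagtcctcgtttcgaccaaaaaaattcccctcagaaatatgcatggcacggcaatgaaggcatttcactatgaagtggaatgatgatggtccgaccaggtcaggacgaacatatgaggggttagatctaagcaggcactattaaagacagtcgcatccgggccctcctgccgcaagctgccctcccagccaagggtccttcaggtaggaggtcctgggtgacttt
COX4I1: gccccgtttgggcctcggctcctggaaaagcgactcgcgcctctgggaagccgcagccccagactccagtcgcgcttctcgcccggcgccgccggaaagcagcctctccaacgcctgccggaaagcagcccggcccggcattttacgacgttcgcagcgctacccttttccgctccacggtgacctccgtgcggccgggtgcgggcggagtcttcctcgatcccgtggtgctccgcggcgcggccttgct
NDUFS8: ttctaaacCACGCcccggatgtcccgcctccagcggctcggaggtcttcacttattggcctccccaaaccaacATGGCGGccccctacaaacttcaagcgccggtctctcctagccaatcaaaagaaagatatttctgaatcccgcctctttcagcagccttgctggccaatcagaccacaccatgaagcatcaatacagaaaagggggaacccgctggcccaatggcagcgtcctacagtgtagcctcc
NDUFS6: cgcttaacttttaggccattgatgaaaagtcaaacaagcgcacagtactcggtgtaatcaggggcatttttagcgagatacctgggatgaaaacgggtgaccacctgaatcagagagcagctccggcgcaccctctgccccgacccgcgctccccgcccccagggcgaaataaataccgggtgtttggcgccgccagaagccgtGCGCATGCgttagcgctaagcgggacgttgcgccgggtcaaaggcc

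In NDUFA4L2 the capitals are 2 copies of GCGTG, which begin 204 and 20 bases before the start. In NDUFS8 they are GCGTG on the opposite strand, beginning 242 bases before the start, and the YY1 core at 177 bases. In NDUFS6 they are the NRF1 core at 46 bases, while the windows of NDUFA4 and COX4I1 held none of the 6 motifs. A promoter entry was found for 47 of the 55 genes. One or other hypoxia core was present in 26 of the 47 (55.3%), against 43.1% of 27305 promoters of the same length. Taken singly, ACGTG was present in 9 (19.1%, against 18.7%) and GCGTG in 22 (46.8%, against 31.9%). The NRF1 core was present in 8 (17%, against 2.81% of all promoters), the ETS core in 13 (27.7%, against 8.82%), the YY1 core in 4 (8.51%, against 2.83%) and GATAA in 7 (14.9%, against 21%). NRF1 and GABP are the factors best known for activating respiratory chain genes, and these shares describe letters only, with no binding measured here. In the count of 26, a promoter with both hypoxia cores was counted once.

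NDUFA4L2 was the member that differed most between groups, and it was lower in HIF-1α knockdown cells. Its log2 normalized intensity was 11.73, 12.41 and 14.30 on the siControl arrays, 12.89, 12.92 and 13.66 on the GATA3 knockdown arrays and 10.15, 11.15 and 11.94 on the HIF-1α knockdown arrays. The highest HIF-1α knockdown array lay above the lowest siControl array, so these groups overlapped by a small margin, whereas every HIF-1α knockdown array lay below every GATA3 knockdown array. NDUFA4L2 fell by 1.74 on the log2 scale in HIF-1α knockdown (standard error 0.64, 95% CI -3.17 to -0.31), which is 3.33-fold, and passed the unadjusted P threshold of 0.05 that the study's methods use (adjusted P = 0.823 from limma over all genes). On the 3 slides, each of which held 1 array of every group, the difference was -1.58, -1.26 and -2.37. The fall rested partly on single arrays: without siControl replicate 3 it was -0.99, and without HIF-1α knockdown replicate 1 it was -1.27, and neither passed the threshold. In GATA3 knockdown the difference from siControl was 0.34 (95% CI -1.09 to 1.77), which did not pass, and its sign differed between slides (1.15, 0.51 and -0.64). In the direct comparison NDUFA4L2 was 4.22-fold higher in GATA3 than in HIF-1α knockdown cells (log2 difference 2.08, standard error 0.64, adjusted P = 0.347 from limma). This passed the unadjusted threshold, and it did so without each of the 9 arrays in turn. With array brightness, the median spot intensity before normalization, as a covariate the difference was 1.19, which also passed.

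NDUFA4, the subunit that NDUFA4L2 resembles, did not pass the threshold in any comparison. Its values were 14.50, 15.27 and 15.82 in siControl, 15.62, 15.17 and 15.76 in GATA3 knockdown and 14.87, 15.56 and 15.26 in HIF-1α knockdown, with all 3 groups overlapping. The log2 difference from siControl was 0.04 (95% CI -0.76 to 0.83) in HIF-1α knockdown and 0.32 (95% CI -0.47 to 1.12) in GATA3 knockdown. Within each array, the value of NDUFA4L2 less that of NDUFA4 was taken, so that anything that moves both genes alike cancels. The 2 probes are different, so only its change between groups was read. This difference was 1.77 lower on the log2 scale in HIF-1α knockdown than in siControl (group difference -1.77, exact two-sided permutation test P = 0.1, adjusted P = 0.3 over 6 tests). With 3 arrays against 3, a P of 0.1 is the smallest possible, and it was reached because the 3 HIF-1α knockdown arrays all lay below the 3 siControl arrays. The same group difference in GATA3 knockdown was 0.02 (exact permutation P = 0.9).

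COX4I2 and COX4I1, the alternative forms of complex IV subunit 4, did not pass the threshold in any comparison. COX4I2 had values of 13.58, 13.70 and 14 in siControl, 13.93, 13.63 and 13.77 in GATA3 knockdown and 13.33, 13.06 and 13.68 in HIF-1α knockdown. HIF-1α knockdown was the lower group on all 3 slides (-0.25, -0.64 and -0.31), with a log2 difference of -0.40 (95% CI -0.95 to 0.15, adjusted P = 0.823 from limma). In GATA3 knockdown the difference was 0.02 (95% CI -0.53 to 0.56). COX4I1 had values of 15.64, 15.53 and 16.56 in siControl, 16.27, 16.26 and 16.79 in GATA3 knockdown and 15.85, 16.61 and 15.58 in HIF-1α knockdown. Its log2 difference from siControl was 0.53 (95% CI -0.28 to 1.34) in GATA3 knockdown and 0.10 (95% CI -0.71 to 0.91) in HIF-1α knockdown. Within arrays, COX4I2 less COX4I1 was lower than in siControl by a similar amount in both knockdowns (-0.52 in GATA3 knockdown, exact permutation P = 0.2, and -0.51 in HIF-1α knockdown, exact permutation P = 0.5).

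**Figure D1:**
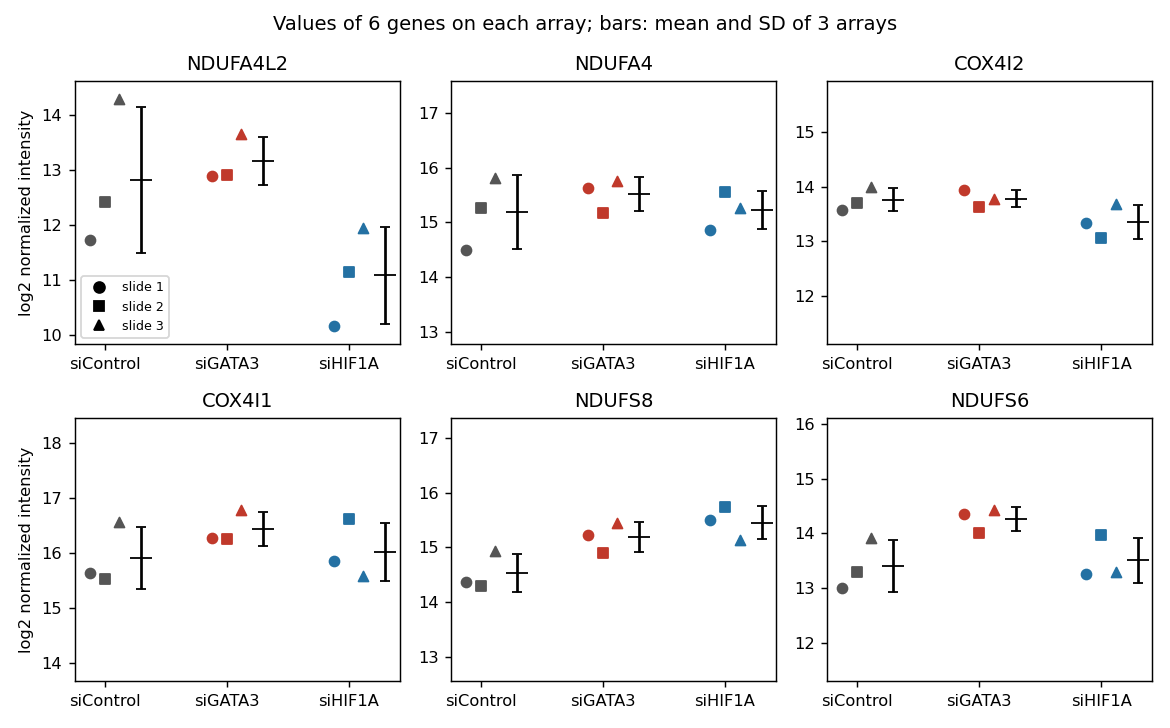
Log2 normalized intensity (vertical axis, arbitrary array units, the same span in each panel) of 6 genes on each of the 9 arrays by group, with a symbol for each slide and a bar for the mean and SD of 3 arrays. NDUFA4L2 is lowest on the HIF-1α knockdown arrays (10.15 to 11.94), NDUFS8 is higher in both knockdowns than in siControl, and the siControl array of slide 3 is the highest control in all 6 panels.

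NDUFS8, a core complex I subunit that carries iron-sulfur clusters, was the one member that passed the threshold in both knockdowns, and it was higher in both. Its values were 14.36, 14.30 and 14.94 in siControl, 15.23, 14.89 and 15.45 in GATA3 knockdown and 15.50, 15.73 and 15.14 in HIF-1α knockdown. Every HIF-1α knockdown array was above every siControl array, while the lowest GATA3 knockdown array was below siControl replicate 3. NDUFS8 was 1.89-fold higher in HIF-1α knockdown (log2 difference 0.92, standard error 0.28, adjusted P = 0.823 from limma) and 1.58-fold higher in GATA3 knockdown (0.66, standard error 0.28, adjusted P = 1 from limma). It was higher on 3 of 3 slides in each, by 0.87, 0.59 and 0.51 in GATA3 knockdown and by 1.14, 1.43 and 0.20 in HIF-1α knockdown. Both comparisons use the same siControl arrays. The call in HIF-1α knockdown passed without each of the 9 arrays in turn, with differences from 0.78 to 1.12, and that in GATA3 knockdown passed in 4 of those 9. In the scaling of the authors' own table the difference in HIF-1α knockdown was 0.70 and missed the threshold. The direct difference between the knockdowns was -0.26 (95% CI -0.88 to 0.36), so a difference between them was not resolved.

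NDUFS6 and NDUFB9, accessory subunits of complex I, rose in GATA3 knockdown. NDUFS6, which holds a zinc site, had values of 13.01, 13.30 and 13.92 in siControl, 14.35, 14.01 and 14.43 in GATA3 knockdown and 13.26, 13.98 and 13.29 in HIF-1α knockdown. Every GATA3 knockdown array was above every other array, and the gene was 1.81-fold higher than in siControl (log2 difference 0.85, standard error 0.31, adjusted P = 1 from limma) and 1.68-fold higher than in HIF-1α knockdown (0.75, adjusted P = 0.405 from limma). NDUFB9, a membrane arm subunit, had values of 16.01, 16.12 and 16.60 in siControl, 17.26, 16.58 and 16.91 in GATA3 knockdown and 15.64, 16.27 and 16.14 in HIF-1α knockdown. The lowest GATA3 knockdown array of NDUFB9 was just under siControl replicate 3, and the log2 difference from siControl was 0.67 (standard error 0.29, adjusted P = 1 from limma). Against HIF-1α knockdown it was 0.90 (standard error 0.29, adjusted P = 0.354 from limma), with no overlap, and it passed without each of the 9 arrays in turn. Against siControl, NDUFS6 passed in 5 of the 9 fits that left out an array and NDUFB9 in 4 of 9. Against HIF-1α knockdown NDUFS6 passed in 5 of these 9 fits, and with array brightness as a covariate its log2 difference was 0.39 and missed the threshold.

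In all, 3 of 55 members passed the unadjusted threshold as higher in GATA3 knockdown than in siControl, against 1.59% of all genes tested, and 0 passed as lower, against 1.38%. In HIF-1α knockdown 1 passed as higher (NDUFS8, against 1.95%) and 1 as lower (NDUFA4L2, against 3.28%). Between the knockdowns 3 were higher in GATA3 knockdown (NDUFA4L2, NDUFB9 and NDUFS6, against 6.93%) and 0 were lower, against 5.05%. Over all genes, limma adjusted by Benjamini-Hochberg called 0 genes in either knockdown and 2 between the knockdowns, none of them a member. In GATA3 knockdown the arrays did not overlap those of siControl for 2 members that were higher (NDUFA3 and NDUFS6, against 2.59% of genes) and for 0 that were lower, against 3.43%. In HIF-1α knockdown they did not overlap for 4 that were higher (NDUFA3, NDUFB10, NDUFS5 and NDUFS8, against 5.19%) and for 2 that were lower (NDUFB4 and NDUFB8, against 8.08%). Between the knockdowns 6 members were higher in GATA3 knockdown without overlap, against 11.9%, and 0 were lower, against 10.9%. In GATA3 knockdown, 1 member passed as lower and 0 as higher without siControl replicate 1, where 2.3% of all genes passed in either direction, and 14 passed as higher without siControl replicate 3, where 12.7% of all genes passed.

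The members as a whole stood slightly higher in GATA3 knockdown and slightly lower in HIF-1α knockdown. Their median log2 difference from siControl was 0.22 in GATA3 knockdown, with 44 of 55 above 0, while the median of all genes tested was -0.02 and 47.7% of them were above 0. In HIF-1α knockdown it was -0.15, with 20 of 55 above 0, against -0.01 and 49% for all genes. Between the knockdowns the median was 0.38 and 45 of 55 were higher in GATA3 knockdown, against 0 and 50.1% for all genes. RefSeq symbols well above background on 9 arrays leaned the same ways. Their medians were 0.03 in GATA3 knockdown (54% above 0), -0.05 in HIF-1α knockdown (45.2%) and 0.11 between the knockdowns (57.2%). The medians of the members against siControl were smaller than the spread among the control arrays, whose member medians had an SD of 0.53. In GATA3 and HIF-1α knockdown that SD was 0.30 and 0.21, and the median of 0.38 between the knockdowns was above both. The median over the 55 genes was 13.98, 14.30 and 15.01 on the siControl arrays, 14.55, 14.16 and 14.75 on the GATA3 knockdown arrays and 14.07, 14.48 and 14.31 on the HIF-1α knockdown arrays, so that siControl held both the lowest and the highest array. Within slides the median difference of GATA3 knockdown from siControl was 0.83, -0.01 and -0.08. That of HIF-1α knockdown was 0.14, 0.23 and -0.79, and between the knockdowns it was 0.70, -0.30 and 0.71. No comparison kept 1 sign of the median on all 3 slides. Without siControl replicate 1 the median in GATA3 knockdown was -0.05, and without siControl replicate 3 the median in HIF-1α knockdown was 0.16.

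**Figure D2:**
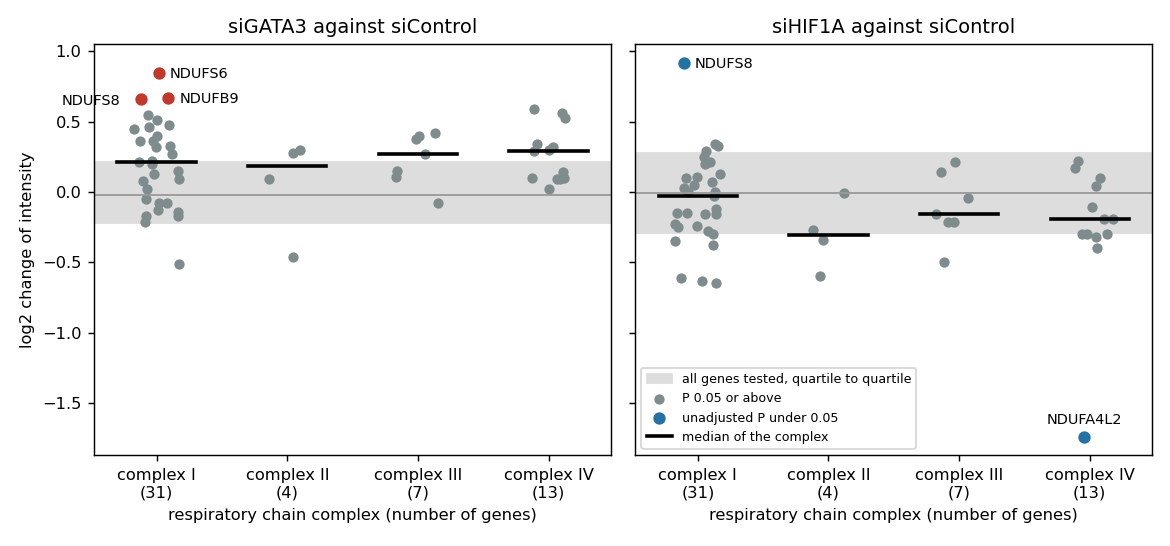
Log2 change of intensity (vertical axis) of the 55 genes by complex in GATA3 knockdown (left) and HIF-1α knockdown (right), each point a gene, with the median of each complex as a black bar and the middle 50% of all genes tested as a grey band. Coloured points passed the unadjusted P threshold, and NDUFA4L2 at -1.74 is below every other member.

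Taken by complex, the medians were above 0 in GATA3 knockdown and below 0 in HIF-1α knockdown. In HIF-1α knockdown that of complex I was close to that of all genes tested (-0.01), with 14 of its 31 genes above 0. In GATA3 knockdown the medians were 0.21 in complex I, 0.18 in complex II, 0.27 in complex III and 0.29 in complex IV, where 13 of 13 genes were above 0. In HIF-1α knockdown they were -0.03, -0.30, -0.16 and -0.19, with 0 of 4 complex II genes and 4 of 13 complex IV genes above 0. Among complex I genes, the 6 core subunits and the 25 accessory subunits had the same median in GATA3 knockdown (0.21). Their medians were 0.03 and -0.03 in HIF-1α knockdown. For GATA3 against HIF-1α knockdown the median was -0.11 for the core (2 of 6 above 0) and 0.36 for the accessory subunits (20 of 25).

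Within each complex, the largest falls and rises apart from the genes above did not pass the threshold. In complex I the largest falls were those of NDUFV1, the NADH-binding core subunit (-0.51 in GATA3 knockdown, 95% CI -1.20 to 0.18), and NDUFA5, an accessory subunit of the peripheral arm (-0.65 in HIF-1α knockdown). In complex II, SDHD, a membrane anchor, was the lowest in both knockdowns, with log2 differences of -0.46 and -0.60, and SDHC, the other anchor, stood at 0.30 in GATA3 knockdown. The 2 other probes of SDHD gave -0.37 and -0.40 in GATA3 knockdown and -0.52 and -0.54 in HIF-1α knockdown. In complex III, CYC1 (cytochrome c1) stood at 0.42 in GATA3 knockdown and UQCRC1, a core protein, at -0.08. In HIF-1α knockdown UQCRFS1, the Rieske iron-sulfur protein, stood at 0.21 and UQCRC2 at -0.50. In complex IV, COX7B was the highest in GATA3 knockdown (0.59) and COX8A in HIF-1α knockdown (0.22).

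NDUFB8 and NDUFB4, both membrane arm subunits of complex I, were lower on every HIF-1α knockdown array than on any siControl array, without passing the threshold. NDUFB8 had values of 14.51, 14.76 and 15.54 in siControl and 14.07, 14.48 and 14.37 in HIF-1α knockdown (log2 difference -0.63, 95% CI -1.31 to 0.05). A second probe of NDUFB8 gave -0.78 and passed the unadjusted threshold, and NDUFB8 itself passed with the slide as a block. NDUFB4 had a log2 difference of -0.61 (95% CI -1.44 to 0.22). In the direct comparison NDUFB4 and NDUFA1 also passed with the block, which brought the number of members that passed from 3 to 5, all of them higher in GATA3 knockdown, while 18.7% of all genes passed with the block. For the other 12 members with more than 1 probe, no further probe passed in any comparison.

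The 55 genes moved together from array to array, and among the siControl arrays this movement was larger than that between groups. Of the siControl arrays, replicate 3 was the highest for 52 of 55 members and replicate 1 the lowest for 50. Replicate 3 of GATA3 knockdown was the highest of its group for 44 and replicate 2 the lowest for 48, and in HIF-1α knockdown replicate 2 was the highest for 45 and replicate 1 the lowest for 36. All 4 complexes took part. The difference of each gene from its mean over the 3 siControl arrays was taken. Its median was between 0.59 and 0.66 in the 4 complexes on siControl replicate 3, and between -0.63 and -0.43 on siControl replicate 1. The exceptions on replicate 3 were NDUFA3, NDUFB7 and NDUFS5, accessory subunits of complex I. Some genes off the list of 55 rose over the siControl arrays in the same order, such as TFAM (13.65, 15.11 and 15.47) and EPCAM (13.53, 13.92 and 15.02). POLG2 fell (14.71, 13.88 and 13.51), and such genes were not counted. The SD of the 3 siControl arrays ranged from 0.06 to 1.33 over the members, with a median of 0.58, against a median of 0.50 over genes well above background. In GATA3 and HIF-1α knockdown the median SD of the members was 0.35 and 0.29, against 0.39 and 0.26 over genes well above background.

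**Figure D3:**
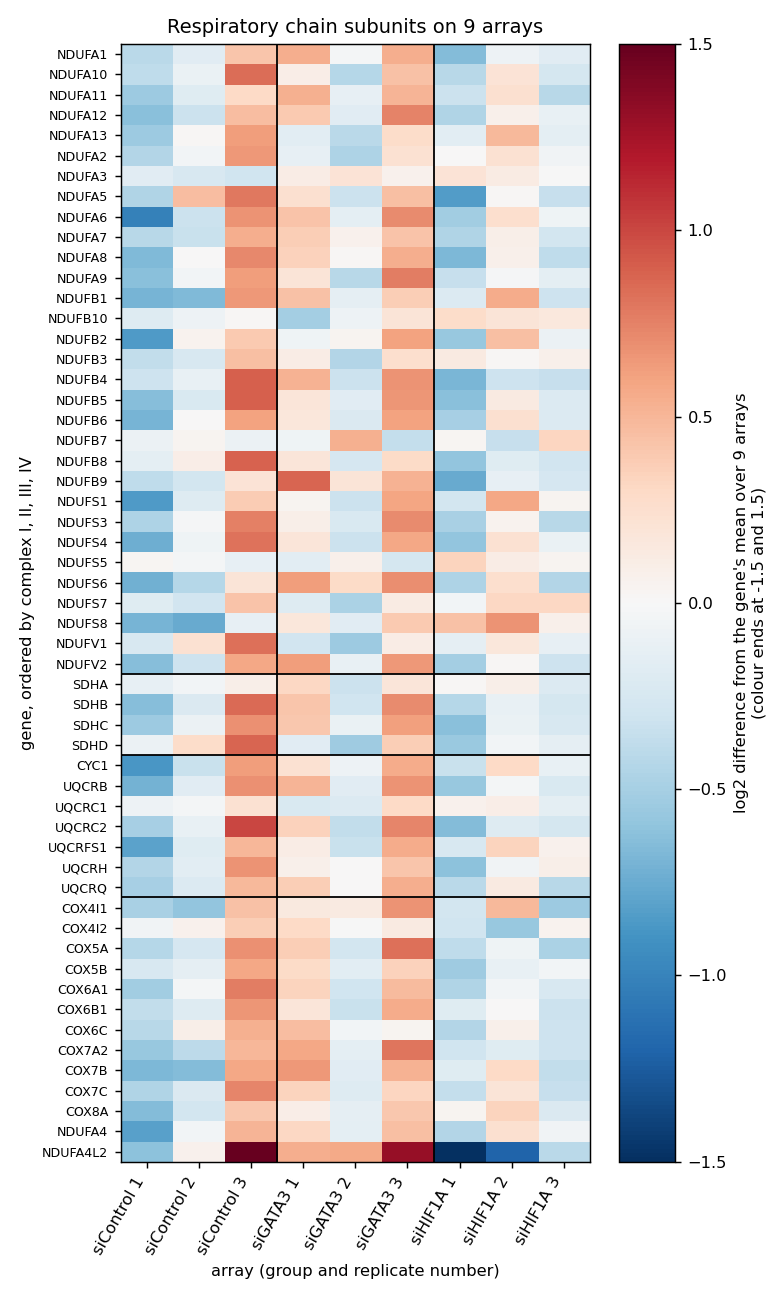
Log2 difference of each of the 55 genes (rows, by complex) from its own mean over the 9 arrays (columns, by group and replicate), in colour from -1.5 to 1.5. The colour follows the array for most genes: siControl replicate 3 and GATA3 knockdown replicate 3 are high for most genes of every complex, and siControl replicate 1 and HIF-1α knockdown replicate 1 are low for most.

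The level of the members ran opposite to the overall brightness of the arrays. The median spot intensity before normalization was 2807.5, 2126.5 and 992.5 on the siControl arrays, 1627, 2452 and 1410 on the GATA3 knockdown arrays and 3560, 2132 and 2502.5 on the HIF-1α knockdown arrays. The 3 dimmest arrays, siControl replicate 3 and GATA3 knockdown replicates 3 and 1, had the 3 highest levels of the members after normalization. With brightness as a covariate in the fit, the median log2 difference of the members was 0.20 in GATA3 knockdown, 0.27 in HIF-1α knockdown and -0.05 between the knockdowns, so the HIF-1α knockdown median changed sign. In that fit 12 members were higher and 2 lower in GATA3 knockdown, and 11 were higher and 1 lower in HIF-1α knockdown, where 10.1% and 7.83% of all genes passed. NDUFA4L2 remained the one lower member in HIF-1α knockdown, with a log2 difference of -0.88 that passed the unadjusted threshold, and NDUFS8 passed as higher in both. Brightness differed between groups as well as between arrays, so its part and that of the knockdown cannot be told apart from 9 arrays.

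**Figure D4:**
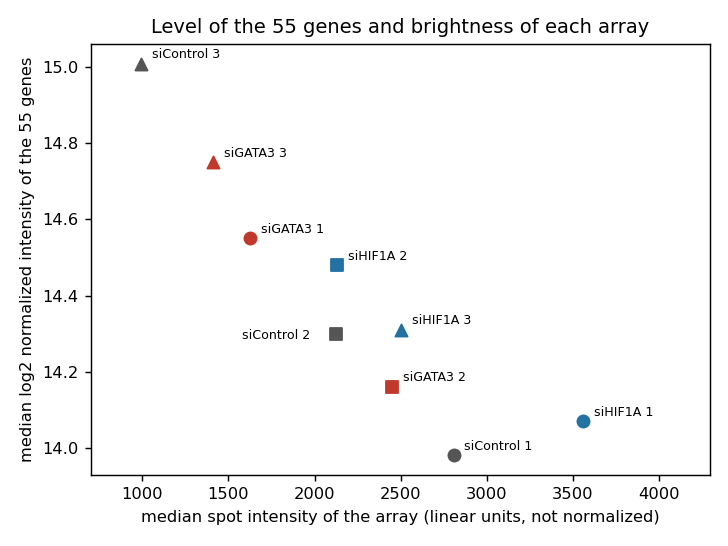
Median log2 normalized intensity of the 55 genes (vertical axis) against the median spot intensity of the array before normalization (horizontal axis, linear units), 1 point per array, coloured by group and shaped by slide. The level falls from 15.01 on the dimmest array, at 992.5, to 13.98 and 14.07 on the brightest, at 2807.5 and 3560.

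Genes around the respiratory chain were read from lists written beside that of the members. Of 15 measured subunits that are not on the list of 55, 1 passed as higher in GATA3 knockdown, against 1.59% of all genes tested. In HIF-1α knockdown 1 passed as lower, against 3.28%, and both were NDUFC1, a small membrane arm subunit of complex I. Its values were 13.34, 13.86 and 14.23 in siControl, 14.56 and 15.03 in GATA3 knockdown, where the array of slide 2 was missing because its spot was marked as non-uniform, and 12.62, 13.00 and 13.15 in HIF-1α knockdown. NDUFC1 stood above siControl in GATA3 knockdown (log2 difference 0.99, standard error 0.34) and below it in HIF-1α knockdown (-0.89, standard error 0.30), and the direct difference was 1.87 (adjusted P = 0.16 from limma). NDUFAB1, the mitochondrial acyl carrier protein, was higher in GATA3 than in HIF-1α knockdown (0.76).

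Of 45 measured assembly factors, 3 were higher in GATA3 knockdown (against 1.59% of all genes tested) and 0 lower (against 1.38%), with a median of 0.22. In HIF-1α knockdown 1 was lower (against 3.28%) and 0 higher (against 1.95%), with a median of 0. UQCC2, which assists the assembly of complex III, was the clearest. It had values of 13.20, 13.29 and 13.75 in siControl, 14.53, 14.12 and 14.59 in GATA3 knockdown and 13.54, 13.85 and 13.52 in HIF-1α knockdown, and GATA3 knockdown lay above both other groups without overlap. Its log2 difference from siControl in GATA3 knockdown was 1.00 (standard error 0.25, adjusted P = 1 from limma). COX17, the copper chaperone of complex IV, was 1.97-fold higher in GATA3 knockdown. COX18, which inserts a complex IV subunit into the membrane, had a log2 difference of 0.90 over 2 GATA3 knockdown arrays, and its probe was well above background on only 2 of 9 arrays. ECSIT, a complex I assembly factor, was lower in HIF-1α knockdown (-0.85), and COA1 was higher in GATA3 than in HIF-1α knockdown (0.90).

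Of 18 ATP synthase subunits, ATP5MG, a membrane subunit, was 1.99-fold lower in GATA3 knockdown, with no overlap (16.38, 16.53 and 17.01 in siControl against 15.74, 15.17 and 16.03), and its log2 difference in HIF-1α knockdown was 0.01. In GATA3 knockdown ATP5MG was the only 1 of the 18 to pass (as lower, against 1.38% of all genes tested), and their median log2 difference was 0.13. ATP5MF, another membrane subunit, was higher in GATA3 than in HIF-1α knockdown (0.85), against 6.93% of all genes, and ATP5MG was lower (-1.01), against 5.05%. Of 14 regulators of mitochondrial biogenesis, 0 passed in GATA3 knockdown, against 1.59% of all genes as higher and 1.38% as lower. TFB1M, a mitochondrial rRNA methyltransferase, was lower in HIF-1α knockdown (-0.66), against 3.28% of all genes. Between the knockdowns TFB1M (1.03), TFB2M (0.82), a mitochondrial transcription factor, and the coactivator PPARGC1B (0.50) were higher in GATA3 knockdown, against 6.93% of all genes. No gene of the mitochondrial genome was matched, so the subunits encoded there were not analysed here.

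Genes listed as linking HIF-1 to respiration were mostly lower in HIF-1α knockdown, and whether each is a target of HIF-1 in these cells was not tested. Of 10 measured, 5 passed as lower in HIF-1α knockdown (against 3.28% of all genes tested) and 0 as higher (against 1.95%). Their median log2 difference was -1.02, against -0.15 for the 55 members. In GATA3 knockdown 0 passed in either direction in limma, and the median was 0.38. BNIP3, a mitophagy receptor, had values of 16.85, 17.05 and 17.63 in siControl, 17.58, 17.02 and 17.37 in GATA3 knockdown and 14.71, 15.10 and 15.18 in HIF-1α knockdown. HIF-1α knockdown stood well below both other groups, 4.54-fold below siControl (log2 difference -2.18, standard error 0.28, adjusted P = 0.221 from limma). PDK1, the kinase that holds back pyruvate dehydrogenase, was 3.43-fold lower, BNIP3L, another mitophagy receptor, 2.62-fold lower, MIR210HG, the host transcript of a hypoxia-induced miRNA, 2.39-fold lower and MXI1, a MYC antagonist, 2.27-fold lower. All 5 were lower on 3 of 3 slides and did not overlap siControl. Between the knockdowns 7 of the 10 passed as higher in GATA3 knockdown, against 6.93% of all genes tested. LONP1 (1.34), the protease that degrades COX4I1, and LDHA (0.51) were among them. LONP1 was at -0.86 in HIF-1α knockdown and did not pass, nor did HIGD1A, FUNDC1 or ISCU in any comparison. A hypoxia core was present before the start of 6 of the 9 with a promoter entry, against 43.1% of 27305 promoters, and no binding was measured.

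The targeted genes were lower in their own knockdowns. GATA3 had values of 10.71, 11.12 and 11.48 in siControl and 9.64, 9.48 and 10.40 in GATA3 knockdown (log2 difference -1.27), and HIF1A had values of 16.71, 16.24 and 17.24 in siControl and 14.51, 14.13 and 14.59 in HIF-1α knockdown (-2.32). Each passed the unadjusted threshold without overlap. HIF1A mRNA did not pass in GATA3 knockdown (-0.05). The share of probes well above background ranged from 73.3% to 88% over the arrays. Of 9 epithelial and squamous markers 8 were well above background on 9 arrays, KRT5 on 0, and 2 of 6 fibroblast markers, 3 of 3 measured leukocyte markers and 3 of 4 endothelial markers were also above it on 9 arrays, so signal above background does not mark a cell type here. The epithelial markers had a median log2 difference of -0.32 in GATA3 knockdown, with 9 of 9 below 0 and 0 passing as lower (against 1.38% of all genes tested) or higher (against 1.59%). In HIF-1α knockdown their median was 0.14, with 7 of 9 above 0. Between the knockdowns it was -0.55, and 2 passed as lower in GATA3 knockdown, against 5.05%. The part of these markers in the results was not tested.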

How the data were processed

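The members and the other gene lists were chosen with earlier results of these data known. Per the file headers, the authors deposited for each array the scanner's linear intensity of 60901 spots that are not controls (Agilent Feature Extraction 10.5.1.1, per the submitters' processing notes), with no normalization between arrays. A log2 table was deposited beside it by the authors. For probes with 1 spot, it equals (within 0.001) the log2 of the scanner's processed signal, shifted per array to put the 75th percentile at 0.

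Following the study's methods, non-uniform spots were set to missing, background was corrected (normexp, offset 50, on median spot and local background signals), arrays were quantile normalized and the 3 groups were fitted in 1 model with limma 3.58.1 (lmFit, eBayes) in R 4.3.3. The methods name neither the background method nor a rule for several probes. RefSeq symbols were matched for 31104 of 58201 probes, and the brightest probe stood for a gene (42 members had 1 probe, 13 had more). A gene was counted at an unadjusted two-sided P of 0.05. Benjamini-Hochberg adjustment ran over all 47720 genes tested in GATA3 knockdown, 47368 in HIF-1α knockdown and 47356 between the knockdowns. The fit was tested on simulated data in which every gene varied independently on every array, so that test does not cover shifts that genes share on an array.

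Named genes were NDUFA4L2, NDUFA4, COX4I1, COX4I2, the targeted genes, members past the threshold, the largest rise and fall per complex and knockdown, and up to 5 genes past the threshold per other list. NDUFA1, NDUFA3, NDUFB4, NDUFB7, NDUFB8, NDUFB10, NDUFS5, TFAM, EPCAM, POLG2 and further genes of the HIF-1 list were named after their values were seen. Replicate numbers come from the sample labels, which do not say that replicates are separate cultures, so P values measure the spread between these arrays, which may be technical. Arrays with the same number shared 1 of 3 slides. Their deviations from the group means correlated at 0.216, 0.592 and 0.723 between siControl and GATA3 knockdown, 0.606, 0.124 and 0.066 between siControl and HIF-1α knockdown, and 0.335, -0.189 and 0.104 between the knockdowns. Each group had the same position on every slide, so position and group cannot be told apart. The number of arrays limits the precision.

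Alternatives changed the signal (processed signal, the authors' table), the background correction (no offset, or none), the scaling, the treatment of dim probes, of non-uniform spots and of several probes, the model (replicate block fixed or random, separate fits, trend and robust, array brightness as a covariate), the P adjustment and the arrays used (each left out, each slide alone). Promoters are the first RefSeq entry per gene on GRCh38.p14, and as the array design names hg19, no other coordinates are given. Proteins were not analysed here.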

Additional observations from a re-analysis of the deposited data

How the results depend on the processing

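With 9 arrays, calls of single members depended on single arrays. The number of members past the threshold was 3 in GATA3 knockdown, 2 in HIF-1α knockdown and 3 between the knockdowns. With each array left out it ranged from 0 to 14, from 1 to 5 and from 2 to 8, while 2% to 12.7%, 2.98% to 10.1% and 5.7% to 20.5% of all genes passed. At an adjusted P of 0.05 it was 0, 0 and 0 in limma. With array brightness as a covariate it was 14, 12 and 7, while 10.1%, 7.83% and 9.82% of all genes passed. Of the 7 between the knockdowns, 2 were higher and 5 lower in GATA3 knockdown. In GATA3 knockdown the number was 1 with 75th percentile scaling after normexp and 1 in the separate fit, where 2.19% and 1.94% of all genes passed. In HIF-1α knockdown it was 1 in the authors' table, where 5.21% of all genes passed. Between the knockdowns it was 5 with the replicate block, 6 with the block as a random effect and 6 in the separate fit, while 18.7%, 18.3% and 18.2% of all genes passed. The block changed no other count of members by over 1.5 times, and the calls of single members named in the report all kept their side of the threshold under it, except NDUFB8 in HIF-1α knockdown and NDUFA1 and NDUFB4 between the knockdowns, which then passed. The median log2 change of the members in GATA3 knockdown was 0.83 within slide 1. In HIF-1α knockdown it was 0.27 with brightness as a covariate, 0.23 within slide 2 and -0.79 within slide 3. Between the knockdowns it was -0.05 with brightness and -0.30 within slide 2. The cause was not tested.

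Some values of members that had not passed the threshold changed sign. COX4I2 in GATA3 knockdown was -0.02 with the processed signal, -0.03 in the authors' table and 0 with non-uniform spots kept. COX4I1 in HIF-1α knockdown was -0.08, -0.10 and -0.10 with the processed signal, the authors' table and 75th percentile scaling, and NDUFA4 was -0.01, -0.04 and -0.07, whereas with brightness as a covariate NDUFA4 was 0.49 and passed. With each array left out, NDUFA4L2 in GATA3 knockdown ranged from -0.20 to 1.09, COX4I2 from -0.07 to 0.13 and NDUFA4 from -0.03 to 0.63, and in HIF-1α knockdown COX4I1 ranged from -0.19 to 0.43 and NDUFA4 from -0.31 to 0.35. NDUFA4L2 in HIF-1α knockdown kept its sign under all 22 alternatives with a test, from -2.28 to -0.88, and passed the unadjusted threshold in 20. NDUFS8 in HIF-1α knockdown kept its sign in 22 and passed in 21.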
